A study of Mus musculus with 15 samples.

Results

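A set of 8 genes, cation-chloride cotransporters of the Slc12 family and kinases that act on them, was followed through 15 RNA sequencing libraries of mouse cortex with and without Phf6, the X-linked gene of Börjeson-Forssman-Lehmann syndrome. The members were 6 genes of the Slc12 family of cation-chloride cotransporters (Slc12a2, Slc12a4, Slc12a5, Slc12a7, Slc12a8 and Slc12a9) and the genes of 2 kinases that act on them, Wnk1 and Stk39. They were taken by name, 8 of 23175 genes retained, and not by any measured value. Slc12a1 and Slc12a3 are given beside the members. All 8 members passed the filter on low counts in every comparison.

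The 4 groups compared were male embryonic samples on a C57BL/6 background. Whole cortex was taken at E15.5 from 3 Phf6+/Y controls and 5 Phf6-/Y littermates, in which the gene was deleted in the germline. Cortical neurons were cultured from E16.5 embryos, 3 of them with genotype Phf6+/Y;Nes-cre Tg/+ as controls and 4 in which Phf6 was deleted by the transgene (genotype Phf6 lox/Y;Nes-cre Tg/+), so that controls and mutants of this tissue both carried the Cre transgene. Nes-cre acts in neural progenitors and all their descendants and is not specific to neurons. The cortices came from litters 1 to 3 and the cultures from litters 4 to 7, and litter 7 gave a single Phf6-deleted culture without a control.

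The Slc12 transporters move chloride together with sodium or potassium across the plasma membrane, in an electroneutral manner. NKCC1, encoded by Slc12a2, brings chloride into the cell, whereas the potassium-chloride cotransporters KCC1 (Slc12a4), KCC2 (Slc12a5) and KCC4 (Slc12a7) carry it out. In the embryonic forebrain NKCC1 dominates and GABA depolarises immature neurons. The neuron-specific KCC2 accumulates with maturation and lowers internal chloride, after which GABA becomes inhibitory. The kinase WNK1 senses chloride and activates SPAK, encoded by Stk39, which phosphorylates NKCC1 to activate it and the KCCs to inhibit them.

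The libraries held 16858007 to 31157700 counted reads. Phf6 counts over the whole gene were 172 CPM (counts scaled to a common library size by TMM over all 15 libraries) in control and 48.0 CPM in Phf6-/Y cortex, and 247 and 70.6 CPM in control and Phf6-deleted neurons. The groups did not overlap in either tissue. One cortical library stood apart. Phf6-/Y replicate 1 (litter 3) had a summed level of 6 cortical markers of 1397 CPM, against 2157 to 2429 CPM in the other 7 cortices. Its part in the results was not tested beyond leaving it out. The summed choroid plexus markers varied from 11.3 to 498 CPM among control and from 8.99 to 356 CPM among Phf6-/Y cortices.

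The gene Slc12a5 lies on chromosome 2 (164960846 to 164999731, GRCm38), and RefSeq gives it 2 transcription starts 7142 bases apart. KCC2 is known to be made as the isoforms KCC2a and KCC2b, which differ in their first exon. Because KCC2 was the member with the largest differences that passed a test, the 300 bases around each start are shown (250 before and 50 from the start on, plus strand, RefSeq, GRCm38.p6). Capitals mark the GC box GGGCGG, on either strand, and the palindromic E-box CACGTG. The windows are chr2:164960596-164960895 for start 1 and chr2:164967738-164968037 for start 2.
Slc12a5 start 1: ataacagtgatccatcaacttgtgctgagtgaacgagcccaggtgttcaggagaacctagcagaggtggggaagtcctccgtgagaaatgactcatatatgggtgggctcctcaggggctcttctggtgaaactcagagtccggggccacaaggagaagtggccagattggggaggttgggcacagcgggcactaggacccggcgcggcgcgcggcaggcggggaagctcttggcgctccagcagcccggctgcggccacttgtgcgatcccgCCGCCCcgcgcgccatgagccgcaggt
Slc12a5 start 2: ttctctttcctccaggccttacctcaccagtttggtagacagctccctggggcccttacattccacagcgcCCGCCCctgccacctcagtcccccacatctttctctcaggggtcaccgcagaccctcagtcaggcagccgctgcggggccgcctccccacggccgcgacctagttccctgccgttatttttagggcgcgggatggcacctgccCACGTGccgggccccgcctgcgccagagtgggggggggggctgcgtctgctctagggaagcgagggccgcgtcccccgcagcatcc

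Each window held 1 GC box, which began at position 23 relative to start 1 and at position -179 relative to start 2, and only the window of start 2 held an E-box, at position -36. A GC box is present in 35.7% and an E-box in 7.15% of all 32851 RefSeq promoters of this length. Neither window held the Egr motif GCGNGGGCG, a TATAAA box, or the half-sites TTCAGCACC and GGACAGCGC of the neuron-restrictive silencer element, which 5.55%, 13.6%, 0.371% and 0.405% of promoters contain. These matches describe letters only. Both windows contained 21 CpG dinucleotides, where the median promoter has 7 and 75.2% of promoters have fewer than 21. The counts give 1 number per gene, so transcripts from the 2 starts could not be separated.

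Levels were compared between genes per length, as RPKM (CPM per kilobase of counted exon). In control cortex, Wnk1 (21.4 ± 2.43 RPKM, SD, n = 3) and Stk39 (18.4 ± 1.03) were the highest, and their ranges overlapped. Among the transporters the order was Slc12a7 (12.1 ± 1.32), Slc12a2 (10.5 ± 0.787), Slc12a5 (7.34 ± 0.790), Slc12a9 (6.88 ± 0.924), Slc12a4 (3.29 ± 0.306) and Slc12a8 (0.392 ± 0.0947). Neighbours in this order were separated by more than their spread except Slc12a7 from Slc12a2 and Slc12a5 from Slc12a9. Slc12a1 and Slc12a3, the kidney transporters NKCC2 and NCC, had 0 to 5 counts in any library and did not pass the filter.

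In the other 3 groups Wnk1 and Stk39 also held the first 2 places, Slc12a2 rank 3 and Slc12a8 rank 8. Slc12a5 ranked 5 of the 8 members in control cortex and 4 in Phf6-/Y cortex (10.6 ± 1.82 RPKM, n = 5). In the cultures its rank was 7, at 1.29 ± 0.199 RPKM in control (n = 3) and 1.53 ± 0.434 RPKM in Phf6-deleted neurons (n = 4). Among the KCC members, Slc12a7 had the highest level in control cortex and in both groups of cultures.

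**Figure D1:**
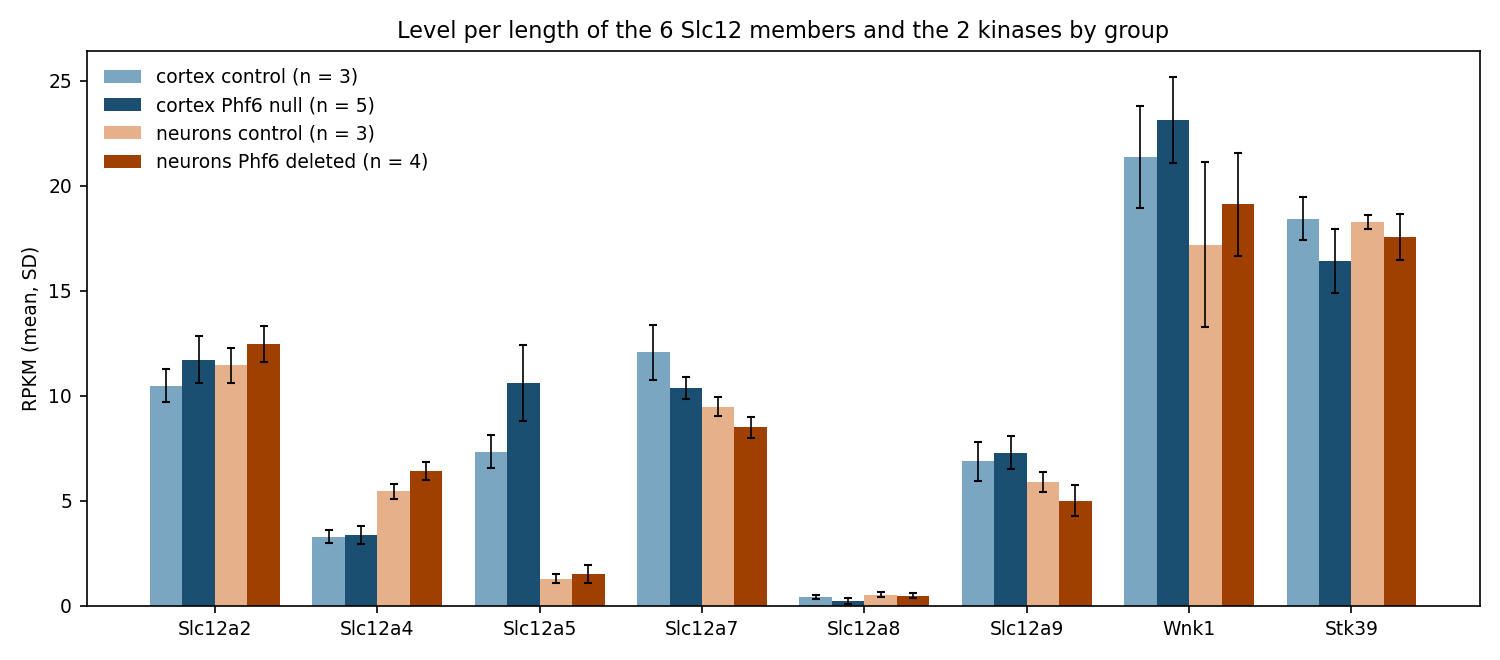
Level per length (RPKM) of the 6 Slc12 members and the 2 kinases by group. Bars are means and error bars SD over libraries. Slc12a5 is at 7.34 and 10.6 RPKM in the cortical groups and at 1.29 and 1.53 RPKM in the cultures, while Slc12a2 stays between 10.5 and 12.5 RPKM.

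KCC2 was higher in the cortex without Phf6. The level of Slc12a5 was 38.8, 46.1 and 47.8 CPM in the control cortices of litters 1, 2 and 3. It was 51.7 and 52.6 CPM in the Phf6-/Y cortices of litter 1, 68.8 and 71.6 CPM in those of litter 2 and 75.0 CPM in that of litter 3. All 5 Phf6-/Y cortices therefore lay above all 3 controls, with litter 1 the lowest in both genotypes. Each Phf6-/Y cortex exceeded the control of its own litter, by 0.41 to 0.65 on the log2 scale. The log2 fold change with litter as a term was 0.55 (SE 0.07, FDR = 0.00684 by the quasi-likelihood F test of edgeR, adjusted over all genes), rank 8 by p-value of 15058 genes.

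Slc12a5 was the only one of the 8 members that passed the FDR threshold of 0.05 in the cortex, where 0.385% of all tested genes did so (0.325% upward). In 2.48% of genes all Phf6-/Y cortices were above all controls. The call depended on taking litter into account. Without the litter term the log2 fold change was 0.52 with an edgeR FDR of 0.4996, and 1 gene in all passed. With libraries left out in turn the change stayed between 0.52 and 0.61, and the FDR missed the threshold only without the control of litter 2 (edgeR FDR = 0.0977). Without Phf6-/Y replicate 1, the library with low cortical markers and the highest Slc12a5, it was 0.52 (edgeR FDR = 0.0299).

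Markers of neurons were examined beside KCC2. Of 12 neuronal markers 0 passed the threshold in the cortex (median log2 fold change 0.05, against 0.00 over all genes), and their summed level ranged from 5870 to 6378 CPM in control and from 5408 to 6847 CPM in Phf6-/Y cortices. None of 8 interneuron markers passed either (median 0.04), where 0.385% of all genes passed. The 6 cortical markers all had negative fitted log2 fold changes, with 0 called and a median of -0.25. Their summed level was low in Phf6-/Y replicate 1 alone, at 1397 CPM. It was 2170 to 2429 CPM in the other Phf6-/Y cortices and 2157 to 2380 CPM in controls. In such bulk samples, a change in the number of cells of a type and a change of RNA per cell cannot be told apart.

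The chloride importer NKCC1 did not pass the test in the cortex. Slc12a2 was at 62.4, 71.2 and 71.4 CPM in controls and between 69.7 and 84.8 CPM in Phf6-/Y cortices, and the groups overlapped. The 5 within-litter differences were all positive but ranged from 0.01 to 0.25 on the log2 scale, largest in litter 1. The fitted log2 fold change was 0.13 (SE 0.07, edgeR FDR = 0.562).

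None of the other exporters passed in the cortex. The KCC4 gene Slc12a7 was at 55.4, 61.5 and 68.9 CPM in controls and at 50.3 to 56.7 CPM in Phf6-/Y cortices, lower than the littermate control in 4 of 5 cases, with a log2 fold change of -0.20 (SE 0.08, edgeR FDR = 0.404). For KCC1, Slc12a4 was at 12.6 ± 1.17 and 12.9 ± 1.72 CPM in control and Phf6-/Y cortex (SD, n = 3 and 5). In summed RPKM, Slc12a4, Slc12a5 and Slc12a7 together reached 22.7 ± 2.10 in control and 24.3 ± 1.62 in Phf6-/Y cortex. KCC2 accounted for 32.3% ± 0.620 of this sum in controls (31.6 to 32.9%) and for 43.4% ± 4.89 in Phf6-/Y cortices (36.8 to 48.4%), and the groups did not overlap. The share of KCC4 was 53.1% ± 1.71 and 42.7% ± 3.26.

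The orphan members did not pass in the cortex. Slc12a9, whose transport substrate is not settled, was at 22.8 ± 3.06 and 24.1 ± 2.62 CPM. Slc12a8 had only 6 to 39 counts per cortical library. It was lower than the littermate control in all 5 Phf6-/Y cortices (log2 fold change -1.004, SE 0.41, edgeR FDR = 0.412), and a difference could not be resolved at this depth. The kinase genes did not pass either. Wnk1 was at 257 ± 29.2 and 279 ± 24.8 CPM (log2 fold change 0.12, edgeR FDR = 0.558) and Stk39 at 59.9 ± 3.34 and 53.3 ± 4.92 CPM (-0.16, edgeR FDR = 0.558).

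**Figure D2:**
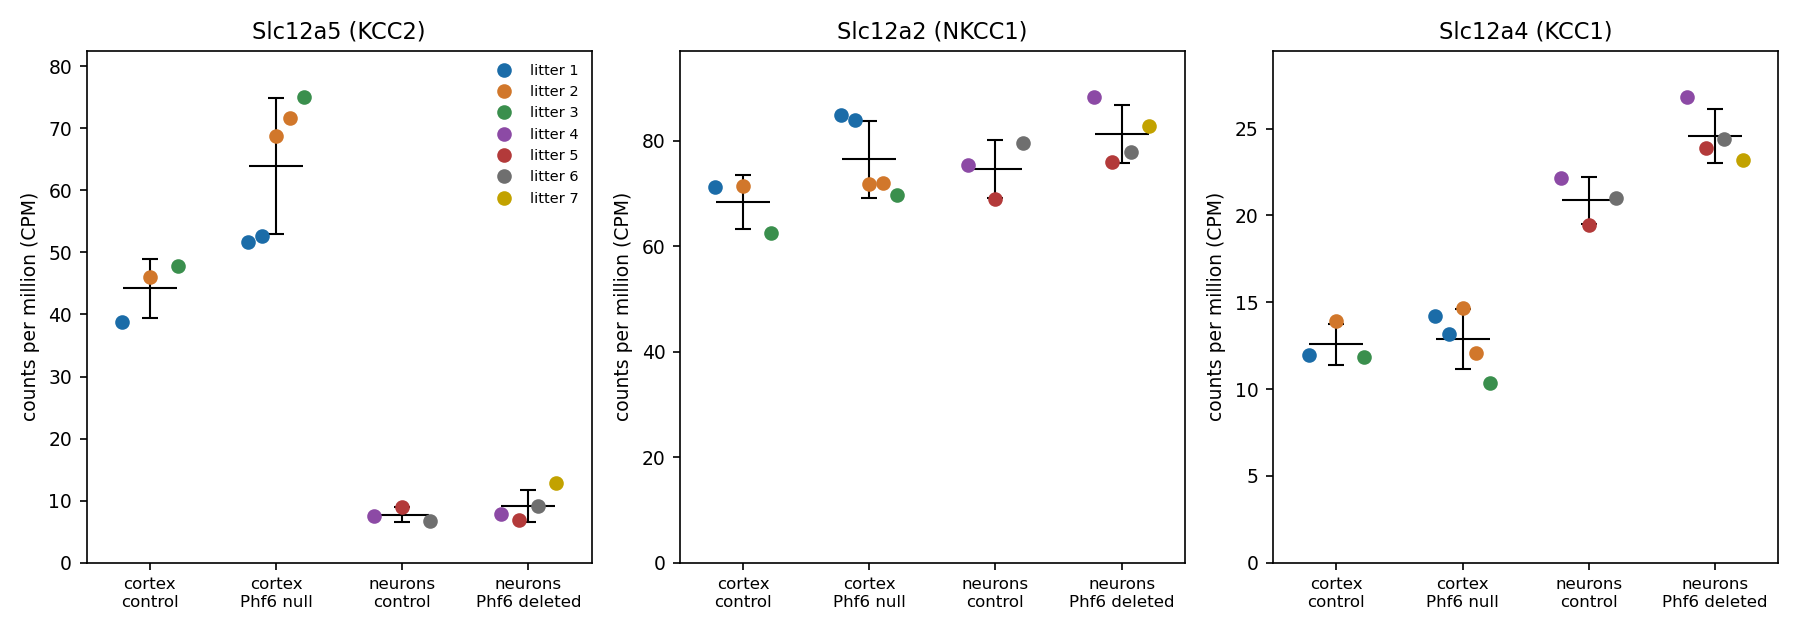
Levels of Slc12a5, Slc12a2 and Slc12a4 in CPM by library and group. Points are libraries coloured by litter, lines are means and error bars SD. The 5 Phf6-/Y cortices (51.7 to 75.0 CPM) lie above the 3 control cortices (38.8 to 47.8 CPM) for Slc12a5, and the cultures lie at 6.67 to 12.9 CPM.

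In cultured neurons the genotypes were not separated by KCC2. Slc12a5 was at 7.59, 9.04 and 6.67 CPM in the control cultures of litters 4, 5 and 6, and at 7.88, 6.87 and 9.13 CPM in the Phf6-deleted cultures of the same litters. The fourth deleted culture, from litter 7, had the highest level, 12.9 CPM. Within litters the deleted culture was higher in 2 of 3 and the differences ran from -0.39 to 0.45 on the log2 scale, so that the groups overlapped. The log2 fold change was 0.04 (SE 0.18, edgeR FDR = 0.967), to which the culture of litter 7 contributes nothing. At this low level, the error was more than the 0.07 found in the cortex.

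None of the 8 members passed the threshold in the neurons, where 0.328% of genes did so. At an unadjusted p below 0.05 there were 2 of 8, Slc12a4 and Slc12a9, where 9.95% of all genes reached this level, and the limma-trend and DESeq2 fits also called 0 members. KCC1 was at 19.4, 21.0 and 22.2 CPM in control and at 23.2, 23.9, 24.4 and 26.8 CPM in deleted cultures. All 4 deleted cultures were above all 3 controls, which held for 3.57% of genes, and each of the 3 with a littermate control exceeded it by 0.22 to 0.30 on the log2 scale. The log2 fold change of Slc12a4 was 0.26 (SE 0.10, edgeR FDR = 0.384). Exons of Slc12a4 overlap those of an antisense gene, Gm16156, and the strand setting of the counting is not given in the sources used here.

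For Slc12a9 the values of the deleted cultures were mostly lower, with 18.4, 18.9 and 21.3 CPM in control and 13.4, 16.1, 18.4 and 18.5 CPM in deleted cultures. It was lower than its littermate control in 3 of 3, with a log2 fold change of -0.31 (SE 0.12, edgeR FDR = 0.371). Slc12a2 was at 74.6 ± 5.41 and 81.2 ± 5.48 CPM (SD, n = 3 and 4), Slc12a7 at 48.7 ± 2.31 and 43.6 ± 2.56 CPM, and Slc12a8 at 1.71 ± 0.429 and 1.56 ± 0.411 CPM. The kinase genes also overlapped between the groups, Wnk1 at 207 ± 47.3 and 231 ± 29.6 CPM and Stk39 at 59.4 ± 1.12 and 57.0 ± 3.59 CPM.

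Whether the effect of Phf6 on a member differed between the tissues was tested as an interaction over all 15 libraries. The genotype effect on Slc12a5 was lower in neurons than in cortex by a log2 difference of -0.51 (SE 0.16), which did not survive adjustment over 15770 genes (unadjusted p = 0.00561, edgeR FDR = 0.760). For Slc12a9 the difference was -0.41 (SE 0.16, edgeR FDR = 0.947). No member passed the FDR threshold, which 0.019% of genes did. These were the 2 members with an unadjusted p below 0.05, a level that 5.16% of genes reached. Without the litter term the difference of Slc12a5 was -0.29 (edgeR FDR = 0.983), and it was -0.31 without control neurons replicate 2 or Phf6-deleted neurons replicate 3, both of litter 5. The DESeq2 fit also called 0 members. A difference of the KCC2 response between the tissues was therefore not established.

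**Figure D3:**
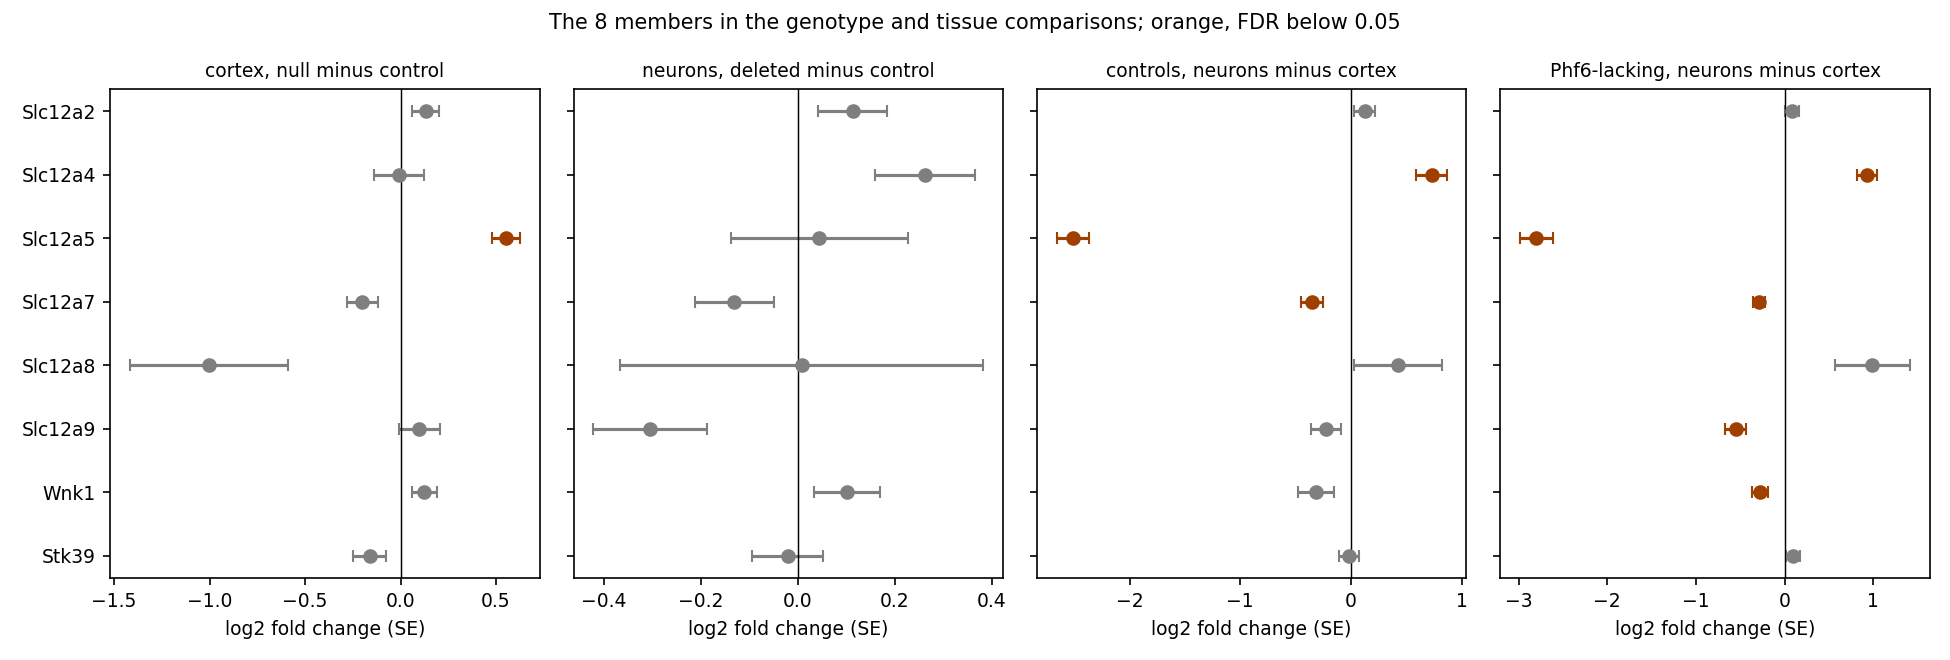
Log2 fold changes with SE of the 8 members in the 4 comparisons, on a separate horizontal scale in each panel. Orange points passed an FDR of 0.05, which was Slc12a5 alone in the cortex and none in the neurons. In both tissue panels Slc12a5 lies furthest to the left, at -2.51 and -2.80.

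The cultures differed from intact cortex far more than the genotypes did from each other. Embryonic stage, dissociation, time in culture, cell makeup and the Nes-cre transgene all changed together between the tissues and cannot be told apart. Of the 8 members, 3 passed the threshold in the controls, Slc12a4 upward and Slc12a5 and Slc12a7 downward, where 51.1% of all genes passed. In the libraries without Phf6 5 of 8 passed, the same 3 with Slc12a9 and Wnk1 downward, where 59.2% of all genes passed. These shares of called members are near the background, and it is the size of the KCC2 difference that stands out among the members.

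In controls Slc12a5 fell from 44.2 ± 4.76 CPM in cortex to 7.77 ± 1.198 CPM in neurons (SD, n = 3 and 3), a log2 fold change of -2.51 (SE 0.14, edgeR FDR = 5.18e-08) and rank 36 by p-value of 14320 genes. In the libraries without Phf6 it fell from 63.9 ± 11.0 to 9.19 ± 2.62 CPM (n = 5 and 4), a log2 fold change of -2.80 (SE 0.19, edgeR FDR = 2.71e-07). The highest culture, at 12.9 CPM, was well below the lowest cortex, at 38.8 CPM. With 1 library left out at a time the change stayed between -2.61 and -2.40 in controls and between -3.00 and -2.69 without Phf6. As a share of the summed RPKM of Slc12a4, Slc12a5 and Slc12a7, KCC2 was 7.94% ± 1.09 in control and 9.28% ± 2.68 in deleted cultures.

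KCC1 rose as KCC2 fell. Slc12a4 was at 11.9, 11.97 and 13.9 CPM in control cortex and at 19.4, 21.0 and 22.2 CPM in control neurons (log2 fold change 0.73, SE 0.14, edgeR FDR = 6.62e-04), and without Phf6 the rise was 0.93 (SE 0.11, edgeR FDR = 1.69e-05). Neither pair of groups overlapped, which was so for 60.5% of genes in controls and 48.9% without Phf6. The share of KCC1 in the summed RPKM of Slc12a4, Slc12a5 and Slc12a7 was 14.5% ± 1.64 in control cortex and 33.6% ± 2.67 in control neurons.

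KCC4 fell slightly. Slc12a7 was at 55.4 to 68.9 CPM in control cortex and 46.5 to 51.1 CPM in control neurons, a log2 fold change of -0.35 (SE 0.10, edgeR FDR = 0.0106), and -0.29 (SE 0.07, edgeR FDR = 0.00295) without Phf6. Leaving out control cortex replicate 1 ended the first call (edgeR FDR = 0.0637). Slc12a9 differed by -0.23 (SE 0.14, edgeR FDR = 0.184) in controls, without passing, and by -0.55 (SE 0.12, edgeR FDR = 0.00145) without Phf6. There its groups did not overlap, which was so for 48.9% of genes. Wnk1 differed by -0.32 (SE 0.17, edgeR FDR = 0.146), without passing, and by -0.28 (SE 0.09, edgeR FDR = 0.02004), and the second call was lost without Phf6-deleted neurons replicate 3 (litter 5) or 4 (litter 6) and when all 15 libraries were fitted together. In controls the Wnk1 difference ran from -0.11 without control neurons replicate 2 to -0.45 without control neurons replicate 1, where it passed (edgeR FDR = 0.0317).

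NKCC1 and SPAK did not pass in either tissue comparison. Slc12a2 differed by a log2 fold change of 0.12 (SE 0.10, edgeR FDR = 0.298) in controls and 0.08 (SE 0.08, edgeR FDR = 0.387) without Phf6, where scaling by library totals turned both to -0.02 and -0.07. That scaling moved the median of all genes by -0.14 and -0.16, and relative to this median Slc12a2 was at 0.15 and 0.11. Stk39 differed by -0.02 (SE 0.09, edgeR FDR = 0.897) and 0.09 (SE 0.08, edgeR FDR = 0.330), and the sign of the second also turned under library totals (-0.06). Slc12a8 differed by 0.43 (SE 0.40) and 0.99 (SE 0.43) without passing (edgeR FDR = 0.393 and 0.0614). The second passed under 2 of 5 other settings, DESeq2 among them (adjusted p = 0.0474), and in 2 of 9 fits with a library left out.

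The ratio of Slc12a5 to Slc12a2 RPKM compares the transcript levels of the chloride exporter KCC2 and the importer NKCC1. Protein and transport were not measured in these libraries. In control cortex it was 0.590, 0.698 and 0.829 in litters 1, 2 and 3. In Phf6-/Y cortex it was 0.660 and 0.679 in litter 1, 1.04 and 1.08 in litter 2 and 1.17 in litter 3. The Phf6-/Y cortices of litter 1 thus fell within the range of the controls, and those of litters 2 and 3 lay above it. Each exceeded its littermate control, by 0.16 to 0.62 on the log2 scale, least in litter 1, in which the Slc12a2 of both Phf6-/Y cortices was also above that of the control.

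The mean ratio was 0.706 ± 0.119 in control and 0.924 ± 0.237 in Phf6-/Y cortex (SD, n = 3 and 5), a difference of 0.36 in mean log2 ratio that did not pass the exact permutation test (two-sided, p = 0.25, smallest attainable 0.0357). Permuted within litters the mean difference was 0.42 with an exact p = 0.111, the smallest that 18 arrangements allow. With these litters the within-litter test could not have passed, so that it leaves undecided whether the ratio differed.

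In control cultures the ratio was 0.109, 0.142 and 0.0906, and in Phf6-deleted cultures it was 0.168, 0.0967, 0.0979 and 0.127. The groups overlapped, with means of 0.114 ± 0.0261 and 0.122 ± 0.0335 (difference 0.09 in log2, exact permutation p = 0.8, smallest attainable 0.0571). Within litters the mean difference was -0.07 (exact p = 0.75). Between the tissues the ratio was 6.24-fold lower in control neurons than in control cortex, and every culture was below every cortex, but with 3 against 3 libraries the exact permutation p was 0.1, the smallest possible. Without Phf6 it was 7.53-fold lower with an exact permutation p of 0.0159, again the smallest possible. Adjusted over the 4 ratio tests, the exact permutation p-values were 0.333, 0.8, 0.2 and 0.0635 for cortex, neurons, tissue in controls and tissue without Phf6.

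**Figure D4:**
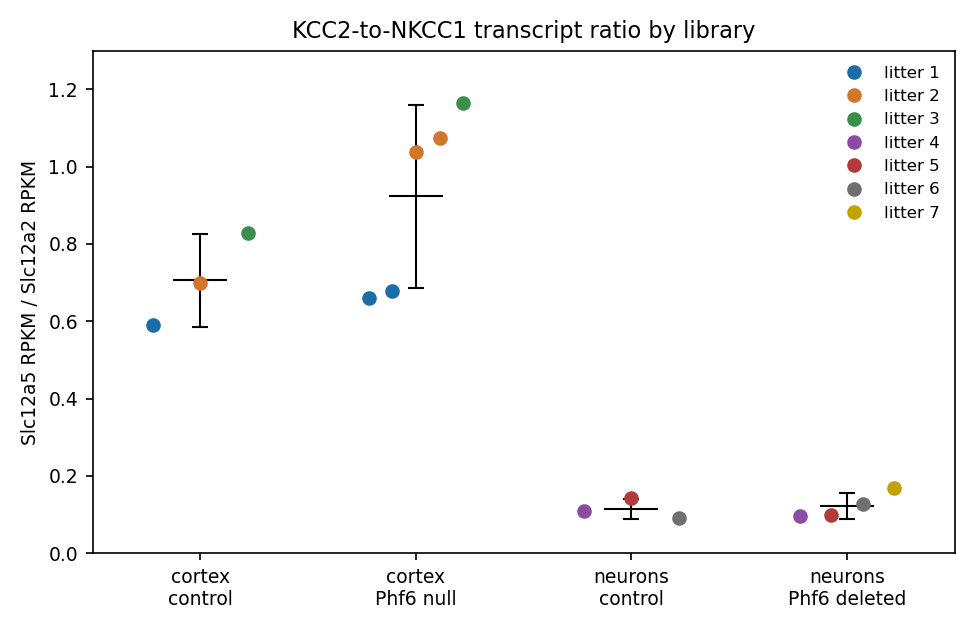
Ratio of Slc12a5 to Slc12a2 RPKM in each library by group. Points are coloured by litter, lines are means and error bars SD. The Phf6-/Y cortices of litter 1, at 0.660 and 0.679, lie among the controls (0.590 to 0.829), and all cultures lie at or below 0.168.

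The transcript ratio of the KCC members to NKCC1 spanned a narrower range. The summed RPKM of Slc12a4, Slc12a5 and Slc12a7 over Slc12a2 RPKM was 2.18 ± 0.348 in control cortex, 2.10 ± 0.324 in Phf6-/Y cortex, 1.42 ± 0.130 in control neurons and 1.32 ± 0.0913 in Phf6-deleted neurons (SD, n = 3, 5, 3 and 4). The low KCC2 of the cultures coincided with higher KCC1, and the summed level was 16.2 ± 0.282 RPKM in control neurons against 22.7 ± 2.10 RPKM in control cortex.

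The fall of the neuron-specific KCC2 in culture went against most neuronal markers. Of 12 such markers, 10 passed as higher and 1 as lower in control neurons against control cortex, where 51.1% of all genes passed. The median log2 fold change was 0.60, against -0.03 over all genes. Without Phf6 10 passed as higher and 0 as lower (median 0.53), where 59.2% of all genes passed. Camk2b, a kinase of synapses, rose by 1.74 (SE 0.13, edgeR FDR = 2.16e-06) and Snap25, a component of vesicle fusion, by 1.27 (SE 0.10, edgeR FDR = 4.40e-07). The vesicular glutamate transporter gene Slc17a7 was the marker that fell, by 0.62 (SE 0.14, edgeR FDR = 0.00358). The summed neuronal markers were at 5870 to 6378 CPM in control cortex and 9311 to 10274 CPM in control neurons.

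Markers of several other cell types were lower in culture. All 8 interneuron markers passed as lower in control neurons (median -1.83), where 51.1% of all genes passed in either direction. Among them was the GABA synthesis gene Gad2 (-1.83, SE 0.12, edgeR FDR = 1.42e-07). The summed level of the 8 markers was 696 to 875 CPM in cortex and 188 to 272 CPM in culture. All 11 progenitor markers also passed as lower (median -1.91). Their summed level was 2947 to 3101 CPM in cortex and 760 to 1112 CPM in culture. The summed endothelial and mural markers went from 205 to 242 CPM to 6.64 to 8.42 CPM, with Cldn5 at 0 in all control cultures. The astrocyte markers went both ways, with 1 of 3 tested higher and 1 lower (median 0.24). Gfap, the intermediate filament gene of astrocytes, rose from 1.06 ± 0.707 CPM in control cortex to 16.1 ± 2.28 CPM in control neurons, whereas Aldh1l1 fell by 2.55 on the log2 scale (SE 0.16, edgeR FDR = 1.06e-07). Of the cortical markers, the deep layer gene Bcl11b fell by 1.11 (SE 0.07, edgeR FDR = 1.47e-07). The part of these differences in the level of Slc12a5 was not tested.

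**Figure D5:**
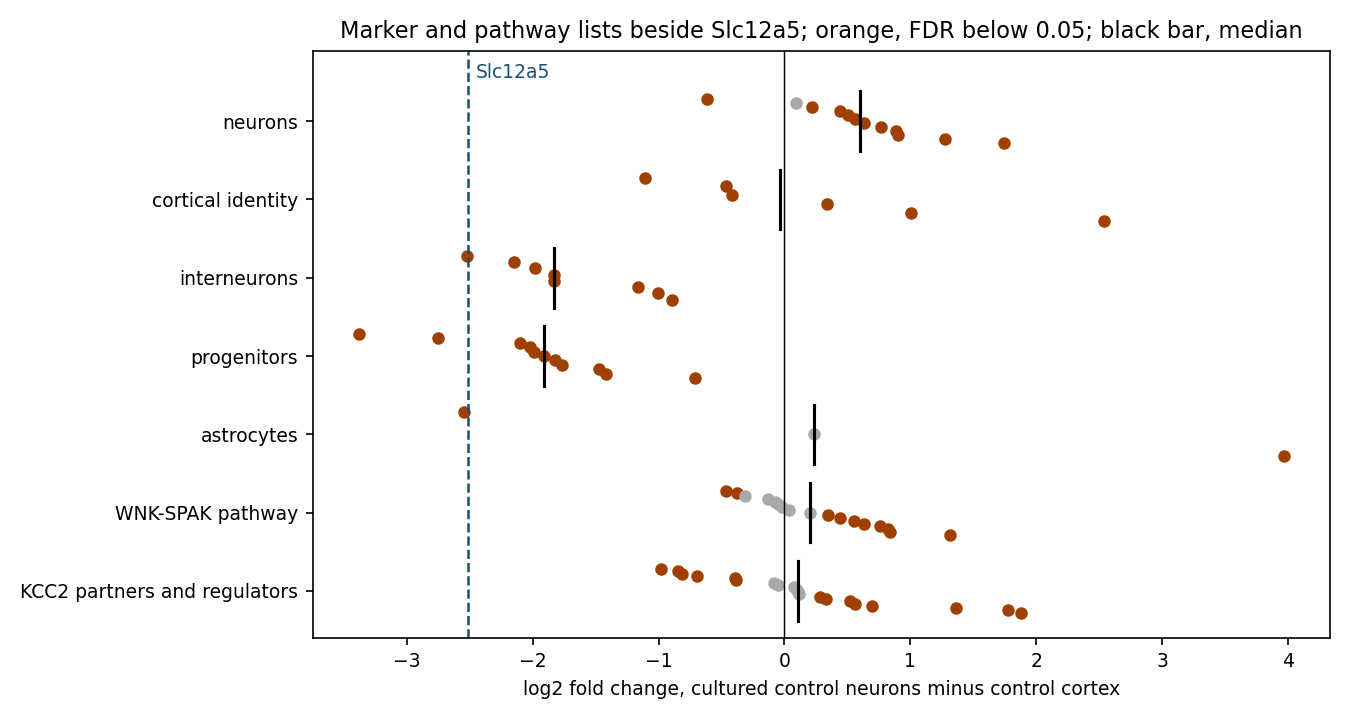
Log2 fold changes between control neurons and control cortex for the genes of 5 marker lists and 2 pathway lists. Each point is a gene, orange where the FDR was below 0.05, black bars are list medians and the dashed line is Slc12a5 at -2.51. The neuronal markers have a median of 0.60, to the right of 0, and the interneuron and progenitor markers have medians of -1.83 and -1.91.

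The wider pathway was examined with 3 gene lists. None of their genes passed in either genotype comparison, that is 0 of 17 genes of the WNK and SPAK pathway (including Wnk1 and Stk39), 0 of 20 tested partners and regulators of KCC2 and 0 of 21 other chloride and bicarbonate genes. Only 0.385% of all genes passed in the cortex and 0.328% in the neurons, so that lists of this size would be expected to hold no call. The list medians spanned -0.01 to 0.06 in cortex and 0.00 to 0.09 in cultures.

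Between control neurons and control cortex, 8 genes of the WNK and SPAK pathway were higher and 2 lower. These 10 of 17, like the 14 of 20 and 12 of 21 of the lists that follow, stand beside the 51.1% of all genes that passed in this comparison. Those with the largest rise were Sgk1, a kinase that modulates ion transport (1.32, SE 0.17, edgeR FDR = 5.54e-05), the phosphatase catalytic subunit gene Ppp1cb (0.84) and Klhl2 (0.82), an adaptor for WNK degradation. Cab39l, which encodes a scaffold of SPAK, was lower (-0.47, SE 0.14, edgeR FDR = 0.0118).

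Among the partners and regulators of KCC2, 8 were higher and 6 lower. Bdnf, the neurotrophin known to regulate KCC2, rose by 1.88 (SE 0.31, edgeR FDR = 2.46e-04) and the protein kinase C gene Prkca by 1.36. Another gene of that family, Prkcb, fell by 0.98 (SE 0.12, edgeR FDR = 1.88e-05), Pacsin1, whose product binds KCC2, by 0.81 and the neuronal silencer Rest by 0.84. Of the other chloride and bicarbonate genes 9 were higher, led by Slc4a4 (1.501), Clcn4 (1.00) and Clcn3 (0.83), and 3 were lower, Slc4a2 (-1.28), Slc26a11 (-1.07) and the carbonic anhydrase gene Car2 (-0.75). Genes of the 3 lists were named only if they also passed in the same direction without Phf6, so this agreement was set by the choice.

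Genes that varied with KCC2 across libraries were ranked by Pearson's r over the 15 libraries after each tissue was centred on its own mean, among 12634 genes. The highest were Sorcs3 (r = 0.933), Grik1 (0.909), Cbfa2t3 (0.893), Nacad (0.868) and Cacna2d2 (0.858), where 95% of genes were below 0.510. Of these, Sorcs3 passed in the genotype comparison of the cortex (log2 fold change 0.65, SE 0.11, edgeR FDR = 0.0238) and Cacna2d2 narrowly did not (0.45, SE 0.09, edgeR FDR = 0.0502). These correlations describe libraries that share litters and genotypes.

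The levels of KCC2 and NKCC1 had almost no correlation. The r of Slc12a5 with Slc12a2 was 0.04 over the 15 centred libraries. Slc12a2 had an r of 0.60 with Slc12a4 and 0.59 with Wnk1, where 95% of genes were below 0.549. Its r was -0.65 with Slc12a7, -0.51 with Stk39 and -0.46 with Slc12a9. The genes most like Slc12a2 were Ankrd12 (0.918), Cdc42bpa (0.900), Vps13a (0.885), Peak1 (0.870) and Bdp1 (0.854). The 5 genes most like Slc12a5 and the 5 most like Slc12a2 had no gene in common, but lists this short among 12634 genes would rarely share one.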

How the data were processed

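The authors aligned paired-end reads to mm10 and deposited raw counts per Entrez gene, without normalization, made with featureCounts. The strand setting is not given in the sources used here. All 15 per-sample files equalled their column of the series table. Of 27179 rows, 1029 had no identifier (0.462% of counts) and were left out, as were 875 identifiers without a RefSeq match (GRCm38.p6), 835 pseudogenes, 35 ribosomal RNA genes and 1230 predicted genes.

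Each comparison was fitted with edgeR 4.0.16 (R 4.3.3) after filterByExpr with the design, by TMM scaling and robust quasi-likelihood F tests, with Benjamini-Hochberg adjustment over all genes tested. Standard errors were derived from the F statistics. Genotype was fitted within each tissue with litter as a fixed term. The litters pair the samples by origin. The tissue fits had no litter term because litters are nested in tissue. CPM and RPKM used TMM sizes over all 15 libraries, and log2 values an offset of 0.5 counts. The ratio was tested by exact permutation (scipy 1.17.1), two-sided. Alternatives used limma 3.58.1 and DESeq2 1.42.0, other scalings, no filter, no litter term and each library left out. The fits were tested on simulated data. P-values measure the spread between embryos or cultures, and counting depth (16858007 to 31157700 reads per library) bears mostly on Slc12a8. Named are the 8 members, other Slc12 genes, list genes called by genotype and the 5 genes most correlated with Slc12a5 or Slc12a2. Up to 3 list genes per direction are named by size of the tissue change. These had to pass in the same direction in controls and without Phf6. Some genes that this rule names are not reported here. Marker genes beside these were chosen after their values were seen. The members and lists were chosen with earlier results of these data known.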

Additional observations from a re-analysis of the deposited data

How the results depend on the processing

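Of 456 repeats of a single gene's test under another setting, 423 kept direction and side of the threshold, 6 lost the call, 7 gained one and 20 changed sign. None of the values that changed sign had passed the test. The call of Slc12a5 in the cortex was kept under limma-trend, DESeq2, RLE size factors, library totals and no filter, and was lost without the replicate block (litter term), which left 0 members called, and without 1 control, so that leaving out libraries gave 0 to 1 called members there. In the tissue comparison of controls, library totals called 5 members against 3, with Slc12a9 and Wnk1 added. The cause of these changes was not tested.

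Without the replicate block, Slc12a4 in the cortex was at 0.0288 and Slc12a8 in neurons at -0.14. With library totals, Slc12a8 in neurons was at -0.00498, Slc12a2 between tissues at -0.0162 (controls) and -0.0713 (without Phf6), and Stk39 at -0.0620 (without Phf6). With the replicate block the ratio difference in neurons was -0.0750. Leaving out libraries in turn gave, in the cortex, a range of -0.13 to 0.0623 for Slc12a4. In neurons it gave -0.16 to 0.24 for Slc12a5, -0.23 to 0.16 for Slc12a8, -0.0147 to 0.17 for Wnk1, -0.0436 to 0.00686 for Stk39 and -0.0750 to 0.26 for the log2 ratio. Between tissues in controls, Stk39 ranged from -0.0457 to 0.0299. The interaction of Slc12a5 was between -0.70 and -0.31 with libraries left out and -0.29 without the replicate block, and passed under none of the settings run. With 3 control libraries per tissue, the ratio could not reach an exact permutation p of 0.05 between control tissues, and Slc12a8 was limited by its counts.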
